A study of Mus musculus with 7 samples.

Results

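The genes described here encode the contractile proteins of the sarcomere and the proteins that store and move calcium in muscle fibres. They are 31 gene symbols taken by name, with no threshold on a measured value, though earlier results of these data were known when the list was made, and 30 of them lie on 44 of the 16273 probes of a mouse array (Mybpc2, the fast fibre myosin binding protein C, is the symbol with no probe in the annotation used here). The plantaris, a calf muscle, gave the RNA, which was hybridised on 7 arrays with 2 dyes. On every array the Cy3 channel held a pool of 8 untrained mice and the Cy5 channel a pool of 3 to 5 mice that had run. The running pools were taken at once after 3 h of running (R3h), at once after 12 h of running (R12h), then 3, 6, 12 and 24 h after a run of 12 h (P3h, P6h, P12h and P24h), and after 4 weeks of running (R4w). For strain, age and sex the labels give nothing. The first 6 are called the single-run arrays and R4w the trained array. Each condition had 1 array of 1 pool, so the spread between mice was not measured.

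A muscle fibre shortens when calcium released from the sarcoplasmic reticulum binds troponin C. Troponin I then lets go of actin, tropomyosin, to which troponin T is bound, shifts on the thin filament, and myosin heads can pull. Fast and slow fibres build this machine from different isoforms of the same proteins, and embryonic and neonatal myosins come before the adult ones in development. The plantaris is a fast muscle, and endurance training is known to move fibres from faster towards slower isoforms. Calcium is then pumped back by the reticulum's calcium ATPases, held in its lumen by calsequestrin and, in fast fibres, buffered in the cytosol by parvalbumin.

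Each value is a log2 ratio of the 2 channels, so that 1 is a 2-fold difference. The direction is not stated in the deposited table. A positive ratio likely stands for more RNA in the runners, whose pool was in the red channel, since ratios are usually formed as red over green. In pooled tissue RNA, fewer cells of a type and less RNA per cell cannot be told apart. A value within 1e-12 of 0 was taken as no usable ratio. By that rule 26 of the 44 probes had a ratio on all 7 arrays, 11 on some of them and 7 on none. Those 7 were the only probes of Ckm (the muscle creatine kinase), Pvalb (parvalbumin), Myl2 and Myl3 (the slow myosin light chains) and Myh8 (the neonatal myosin heavy chain), plus a further probe each of Myh7 and Tpm3. They make up 15.9% of the 44 probes, beside 9.08% of all 13731 probes with a single symbol. Ratios carry no level, so the muscle identity of the RNA could not be checked from these markers.

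Probe names are those of the platform annotation, and probes that carry the same name often differed. Over the 6 pairs of probes with a shared symbol and ratios on all 7 arrays, 25 of 42 values had the same sign (59.5%). The same share was 52.7% over all 1245 such pairs on the array and 50.1% over every pair of tested probes. The median Pearson correlation over the 7 arrays was 0.01 for the 6 pairs, 0.06 for the 1245 and 0.01 for every pair. A shared name thus told little about the course of a ratio. Whether the annotation pairs probe numbers with the right genes was not tested, so each gene name below, and each promoter shown for it, goes by the label of a numbered probe.

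**Figure D1:**
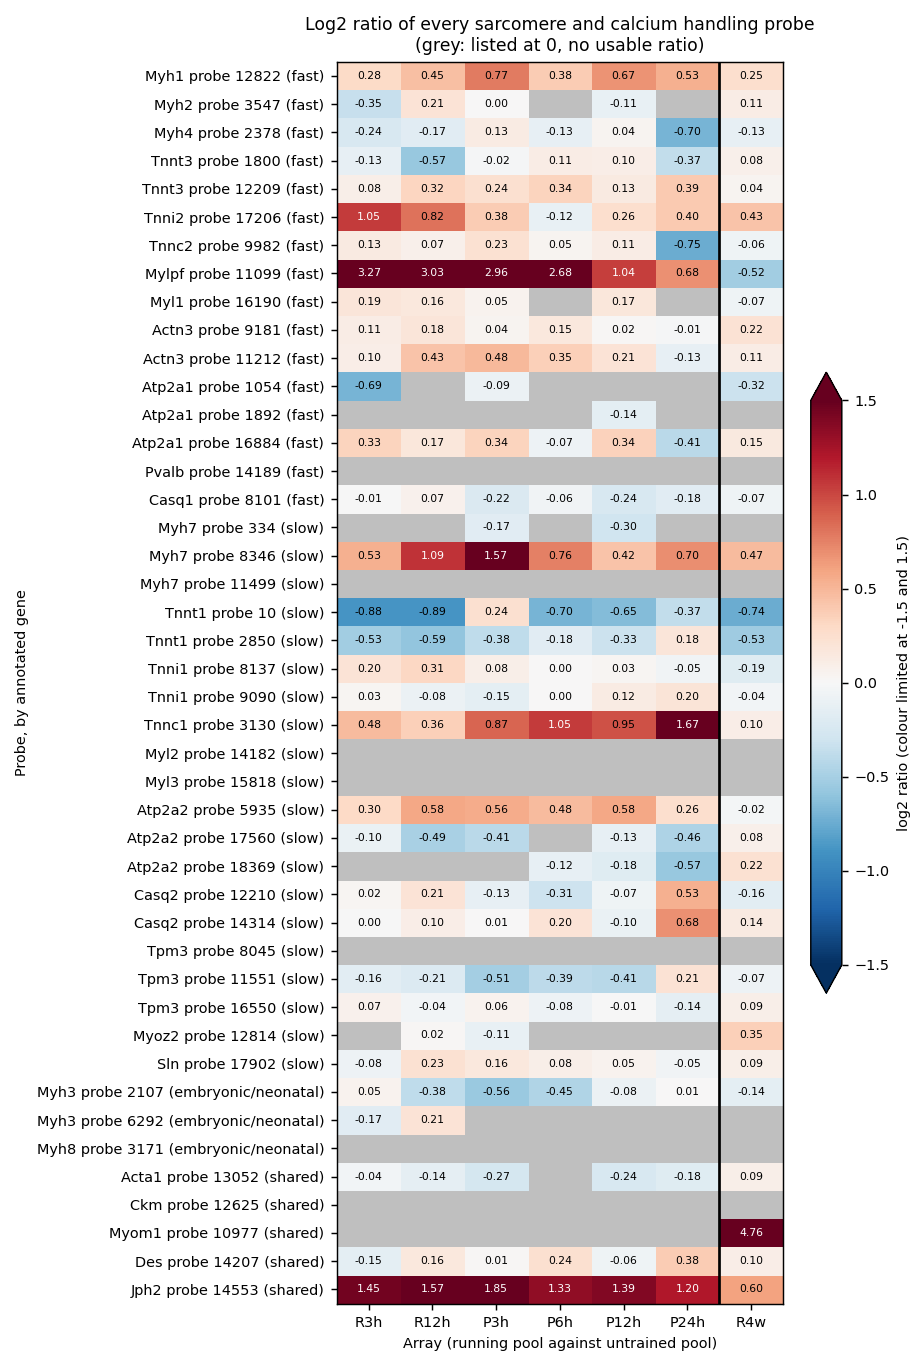
Log2 ratio of each of the 44 probes (rows, grouped as fast, slow, embryonic or neonatal and shared muscle genes) on each of the 7 arrays (columns), with the value printed in the cell and grey where there was no usable ratio. The Mylpf and Jph2 rows hold the high ratios of the single-run arrays, the Tnnt1 rows several of the low ones, and the Myom1 row holds 1 value, 4.76 on R4w.

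The first comparison asked which of these genes stood apart from the untrained pool across the single-run arrays. The Mylpf probe (the regulatory light chain of fast myosin) had the highest mean, 2.28 ± 1.12, followed by the Jph2 probe (junctophilin, which ties the reticulum to the cell membrane) at 1.46 ± 0.22 (SD, n = 6 arrays). The Tnnc1 probe (slow and cardiac troponin C) and a Myh7 probe (the slow myosin heavy chain) had means of 0.90 ± 0.47 and 0.85 ± 0.42. Among the 26 probes with a full record, the lowest means belonged to both probes of Tnnt1 (slow troponin T), at -0.54 ± 0.43 and -0.30 ± 0.28. By size of the mean, the Mylpf probe was number 37 and the Jph2 probe number 76 of the 9023 probes tested.

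In limma, with Benjamini-Hochberg adjustment over all 9023 probes and a threshold of 0.05, 8 of the 26 member probes had a positive mean past the threshold, where 16.2% of all probes did, and 2 had a negative one, where 14.2% did. The positive ones were 4 of the 11 fast fibre probes (Mylpf, Myh1, Tnni2 and 1 of the 2 Tnnt3 probes), 3 of the 12 slow fibre probes (Tnnc1, Myh7 and 1 Atp2a2 probe) and 1 of the 2 shared probes (Jph2). The negative ones were both slow Tnnt1 probes, and the 1 embryonic probe, of Myh3, did not pass. The median mean was 0.09 over the 26 probes and -0.0047 over all 9023. Of the 26 probes, 7 were positive on all 6 single-run arrays (26.9%, against 17.2% of all probes) and 0 were negative on all 6 (against 15.1%). That 0 holds for full records only. Atp2a2 number 17560 and the Acta1 probe were negative on all 5 single-run arrays that gave them a ratio. The Myl1 probe was positive on all 4 of its own, and the Myh2 probe had both signs. The 6 arrays are different times, so the SD mixes error with change over time, and the test leaves out the spread of the single control pool and any dye effect.

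**Figure D2:**
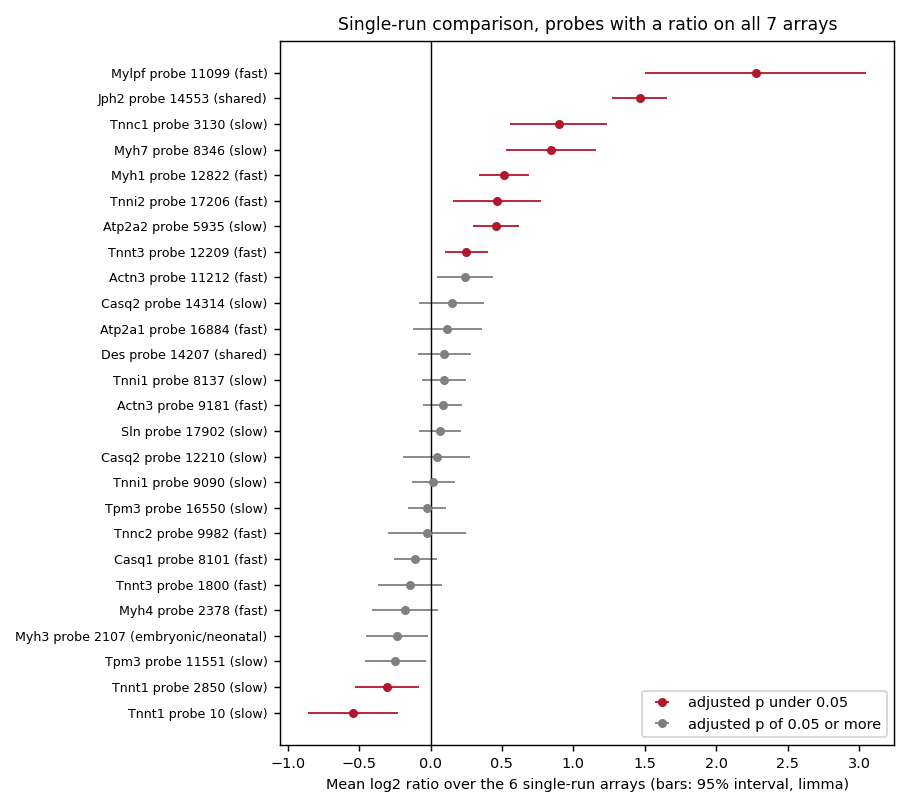
Mean log2 ratio over the 6 single-run arrays (horizontal axis) of the 26 probes with a ratio on all 7 arrays, with the 95% interval from limma, in red where the adjusted p was under 0.05. The Mylpf and Jph2 means, 2.28 and 1.46, lie above the intervals of the 16 probes that did not pass.

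The Mylpf probe (number 11099) had a log2 ratio of 3.27 and 3.03 right after running (R3h, R12h), 2.96, 2.68, 1.04 and 0.68 in recovery (P3h to P24h) and -0.52 on R4w. It was high during the run and through 6 h of rest, lower at 12 and 24 h, and below 0 in the trained pool. Its mean was positive with an adjusted p of 0.00196 (limma). On R3h the ratio was number 6 from the top of 13616 usable probes, and on P24h number 546 of 11309.

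The Jph2 probe (number 14553) had ratios of 1.45 and 1.57 right after running (R3h, R12h), 1.85, 1.33, 1.39 and 1.20 in recovery (P3h to P24h) and 0.60 on R4w. Its single-run values lay within 1.20 and 1.85, all above the trained value. Its mean had an adjusted p of 2.86e-05 (limma), the smallest among the members.

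The slow fibre probes of Tnnc1 and Myh7 took different courses. The Tnnc1 probe (number 3130) had ratios of 0.48 and 0.36 right after running (R3h, R12h), 0.87, 1.05, 0.95 and 1.67 in recovery (P3h to P24h) and 0.10 on R4w. Its highest value was the last of the recovery arrays, and its trained value was lower than all 6 others. The Myh7 probe (number 8346) had 0.53 and 1.09 right after running (R3h, R12h), 1.57, 0.76, 0.42 and 0.70 in recovery (P3h to P24h) and 0.47 on R4w. It was highest 3 h after the run, and its trained value lay inside the single-run range. The adjusted p of the means was 0.00305 for Tnnc1 and 0.00273 for Myh7 (limma).

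The DNA before the transcription start is where the factors that drive muscle genes bind, and the windows of the genes just described and of Myh1 and Tnnt1 are shown because their probes were among the positive and negative calls. For the other called symbols, Tnni2, Tnnt3 and Atp2a2, no window was found, so they are also absent from the motif counts below. Each window is the 250 bases before the most upstream RefSeq start in GRCm38.p6, written 5′ to 3′ on the strand of the gene. Capitals mark CANNTG, the E-box that myogenic factors can bind, and matches to the MEF2 site, which muscle MEF2 factors can bind.
Mylpf (chr7:127211358-127211607, plus strand): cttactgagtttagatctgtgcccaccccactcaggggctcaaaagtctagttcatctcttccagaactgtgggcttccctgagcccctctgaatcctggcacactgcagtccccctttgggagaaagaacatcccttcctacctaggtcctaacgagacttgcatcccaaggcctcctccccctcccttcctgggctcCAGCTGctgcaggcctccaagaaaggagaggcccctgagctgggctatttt
Jph2 (chr2:163397994-163398243, minus strand): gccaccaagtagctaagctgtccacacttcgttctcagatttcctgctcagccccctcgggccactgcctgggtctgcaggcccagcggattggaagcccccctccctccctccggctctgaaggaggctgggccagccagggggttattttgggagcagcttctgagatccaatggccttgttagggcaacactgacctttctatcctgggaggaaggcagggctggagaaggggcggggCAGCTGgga
Tnnc1 (chr14:31208062-31208311, plus strand): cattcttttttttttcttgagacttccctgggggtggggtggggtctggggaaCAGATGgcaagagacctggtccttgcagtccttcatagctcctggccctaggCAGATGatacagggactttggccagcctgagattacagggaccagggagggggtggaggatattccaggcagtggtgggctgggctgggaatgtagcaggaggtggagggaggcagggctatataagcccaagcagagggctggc
Myh7 (chr14:54994627-54994876, minus strand): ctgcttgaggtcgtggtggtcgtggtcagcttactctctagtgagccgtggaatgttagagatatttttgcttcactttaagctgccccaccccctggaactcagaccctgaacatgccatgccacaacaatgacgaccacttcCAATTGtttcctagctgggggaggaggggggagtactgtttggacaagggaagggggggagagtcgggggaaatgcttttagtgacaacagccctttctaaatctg
Myh1 (chr11:67199852-67200101, plus strand): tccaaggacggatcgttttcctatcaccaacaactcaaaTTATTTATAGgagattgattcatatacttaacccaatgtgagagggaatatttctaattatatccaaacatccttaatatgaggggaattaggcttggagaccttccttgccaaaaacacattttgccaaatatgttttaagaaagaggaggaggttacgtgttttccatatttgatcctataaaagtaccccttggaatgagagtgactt
Tnnt1 (chr7:4515976-4516225, minus strand): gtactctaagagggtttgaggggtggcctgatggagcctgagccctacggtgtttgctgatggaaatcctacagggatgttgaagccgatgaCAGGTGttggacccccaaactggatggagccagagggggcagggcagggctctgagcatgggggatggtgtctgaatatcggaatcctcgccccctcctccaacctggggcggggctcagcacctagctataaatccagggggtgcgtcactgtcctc
The E-box of Mylpf begins 51 bases before the start and that of Jph2 9 bases before it, and both read CAGCTG. Tnnc1 has 2 E-boxes, both reading CAGATG, Myh7 has CAATTG and Tnnt1 has CAGGTG, so genes with positive and with negative calls both hold one. Myh1 has no E-box in the window and a MEF2 match that begins 211 bases before the start, with the same letters as the matches of Myh4 and Myh8.

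Windows were found for 26 of the 31 symbols, and 23 of them (88.5%) held CANNTG, against 66.2% of all 32851 windows of this length. Each member is counted by its most upstream start, while the 32851 windows can hold several starts of a gene. MEF2 matches, searched on both strands like the others, were in 6 (23.1%) against 2.92%, and CArG boxes, the site of serum response factor, in 4 (15.4%) against 1.47%. The MCAT sequence CATTCC was in 8 (30.8%) against 12.6%, and TATAAA in 7 (26.9%) against 12.4%. Matches of MEF2, the CArG box and TATAAA are rich in A and T and can overlap. The MEF2 matches of Myh1, Myh4 and Myh8, all on chromosome 11, read alike, so they may not be separate occurrences. These are matches of letters, and no binding was measured.

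Among the fast fibre genes, the heavy chain probes did not move together. The Myh1 probe (number 12822) had ratios of 0.28 and 0.45 right after running (R3h, R12h), 0.77, 0.38, 0.67 and 0.53 in recovery (P3h to P24h) and 0.25 on R4w, with a mean of 0.52 ± 0.18 (SD, n = 6 arrays) and an adjusted p of 0.00195 (limma). It was above 0 on all 7 arrays and lowest on R4w. The Myh4 probe, of the heavy chain that dominates the fastest fibres, ranged from -0.70 on P24h to 0.13 on P3h and did not pass (mean -0.18, adjusted p 0.211). The Myh2 probe had a ratio on 5 arrays, from -0.35 on R3h to 0.21 on R12h.

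The fast troponin probes differed by subunit. The Tnni2 probe (number 17206, fast troponin I, the inhibitory subunit) had 1.05 and 0.82 right after running (R3h, R12h), 0.38, -0.12, 0.26 and 0.40 in recovery (P3h to P24h) and 0.43 on R4w, with a mean of 0.46 ± 0.41 (SD, n = 6 arrays) and an adjusted p of 0.0307 (limma). Its highest ratios were those of the running muscle, and the 1 negative ratio followed at 6 h of rest. The call was lost without R3h, R12h or P3h (adjusted p from 0.0601 to 0.0953). The Tnnc2 probe (fast troponin C, the calcium sensor) lay between 0.05 and 0.23 on 5 single-run arrays and at -0.75 on P24h. Its mean of -0.03 did not pass (adjusted p 0.885). Of the Tnnt3 probes (fast troponin T, which binds tropomyosin), number 12209 had 0.08 and 0.32 right after running (R3h, R12h), 0.24, 0.34, 0.13 and 0.39 in recovery (P3h to P24h) and 0.04 on R4w. Number 1800 had -0.13 and -0.57 right after running (R3h, R12h), -0.02, 0.11, 0.10 and -0.37 in recovery (P3h to P24h) and 0.08 on R4w. The first was above 0 on all 7 arrays and passed (mean 0.25 ± 0.12, SD, n = 6 arrays, limma adjusted p 0.0199), and the second did not (mean -0.15, adjusted p 0.29). Averaged, the Tnnt3 probes had a mean of 0.05 (adjusted p 0.558), and the call of number 12209 was also lost without R12h, P3h or P6h (0.0556 to 0.0641).

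No fast fibre probe of the Z-disc or of calcium handling with a full record passed the test. The Actn3 probes, of the fast fibre actinin that cross-links actin at the Z-disc, had 0.11 and 0.18 right after running, 0.04, 0.15, 0.02 and -0.01 in recovery and 0.22 on R4w for number 9181, and 0.10 and 0.43 right after running, 0.48, 0.35, 0.21 and -0.13 in recovery and 0.11 on R4w for number 11212. They had the same sign on all 7 arrays, and neither passed (adjusted p 0.307 and 0.0666). Number 11212 did pass without P24h (0.0133) and with the arrays scaled to one spread (0.0461). The Atp2a1 probe with a full record (number 16884, the calcium ATPase of fast fibres) had 0.33 and 0.17 right after running (R3h, R12h), 0.34, -0.07, 0.34 and -0.41 in recovery (P3h to P24h) and 0.15 on R4w. Another Atp2a1 probe with the same accession (number 1054) had -0.69 on R3h, -0.09 on P3h and -0.32 on R4w, opposite in sign on all 3 arrays that both covered. Another (number 1892) had a ratio only on P12h, of -0.14. The Casq1 probe (fast calsequestrin) ranged from -0.24 to 0.07 on the 7 arrays, and the Myl1 probe (the essential light chain of fast myosin) from -0.07 to 0.19 on 5 arrays.

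Among the slow fibre probes with a full record, the 2 Tnnt1 probes, which share an accession, had the lowest means. Atp2a2 number 17560, without a full record, had a mean of -0.32 over 5 single-run arrays. Tnnt1 number 10 had -0.88 and -0.89 right after running (R3h, R12h), 0.24, -0.70, -0.65 and -0.37 in recovery (P3h to P24h) and -0.74 on R4w. Tnnt1 number 2850 had -0.53 and -0.59 right after running (R3h, R12h), -0.38, -0.18, -0.33 and 0.18 in recovery (P3h to P24h) and -0.53 on R4w. Both were below 0 at the end of running and in the trained pool, and they parted on P3h and P24h. Their adjusted p values were 0.0189 and 0.0468 (limma). The first call was lost without R12h, P6h or P12h (adjusted p 0.0526 to 0.0622), and the second without R3h, R12h, P3h, P6h or P12h (0.0772 to 0.138).

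The Atp2a2 probes, of the calcium ATPase of slow fibres and heart, disagreed in sign. Number 5935 had 0.30 and 0.58 right after running (R3h, R12h), 0.56, 0.48, 0.58 and 0.26 in recovery (P3h to P24h) and -0.02 on R4w, with a mean of 0.46 ± 0.15 (SD, n = 6 arrays) and an adjusted p of 0.00205 (limma). It was positive on the 6 single-run arrays and near 0 in the trained pool. Number 17560 had -0.10 on R3h, -0.49 on R12h, -0.41 on P3h, -0.13 on P12h, -0.46 on P24h and 0.08 on R4w. Number 18369, with the same accession as 17560, had -0.12, -0.18 and -0.57 on P6h, P12h and P24h and 0.22 on R4w. The last pair had the same sign on all 3 arrays they shared and differed there by at most 0.145, while each was opposite to number 5935 on every array shared with it.

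The other slow fibre probes did not pass. The Casq2 probes (cardiac and slow calsequestrin) had 0.02 and 0.21 right after running, -0.13, -0.31, -0.07 and 0.53 in recovery and -0.16 on R4w for number 12210, and 0.00 and 0.10 right after running, 0.01, 0.20, -0.10 and 0.68 in recovery and 0.14 on R4w for number 14314. Both were highest on P24h. The Tpm3 probes (slow tropomyosin), which share an accession, had -0.16 and -0.21 right after running, -0.51, -0.39, -0.41 and 0.21 in recovery and -0.07 on R4w for number 11551, and 0.07 and -0.04 right after running, 0.06, -0.08, -0.01 and -0.14 in recovery and 0.09 on R4w for number 16550. The first was below 0 on 5 single-run arrays and passed only when P24h was left out (mean -0.34, limma adjusted p 0.00891), and the second stayed within -0.14 and 0.09. The Tnni1 probes (slow troponin I) had 0.20 and 0.31 right after running, 0.08, 0.00, 0.03 and -0.05 in recovery and -0.19 on R4w for number 8137, and 0.03 and -0.08 right after running, -0.15, 0.00, 0.12 and 0.20 in recovery and -0.04 on R4w for number 9090. From R12h to P24h the first went from 0.31 to -0.05 and the second from -0.08 to 0.20. The Sln probe (sarcolipin, a small inhibitor of the calcium ATPase) ranged from -0.08 to 0.23. The Myoz2 probe (a Z-disc protein that binds calcineurin) had a ratio on 3 arrays, of 0.02, -0.11 and 0.35, the last on R4w. A further Myh7 probe (number 334) had -0.17 on P3h and -0.30 on P12h, where number 8346 was positive.

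The embryonic and shared genes gave few usable ratios. The Myh3 probe with a full record (number 2107, the embryonic heavy chain) had 0.05 and -0.38 right after running (R3h, R12h), -0.56, -0.45, -0.08 and 0.01 in recovery (P3h to P24h) and -0.14 on R4w, with a mean of -0.24 ± 0.26 (SD, n = 6 arrays) and an adjusted p of 0.0912 (limma). It was lowest on R12h, P3h and P6h. The other Myh3 probe had -0.17 on R3h and 0.21 on R12h, opposite in sign on both. The Acta1 probe (skeletal actin, the thin filament) lay between -0.27 and -0.04 on 5 single-run arrays and at 0.09 on R4w, with no ratio on P6h. The Des probe (desmin, the intermediate filament that links Z-discs) ranged from -0.15 on R3h to 0.38 on P24h and did not pass (adjusted p 0.388). The Myom1 probe (myomesin of the M-band) had a ratio on R4w alone, of 4.76, which was number 2 from the top of 13228 usable probes there.

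**Figure D3:**
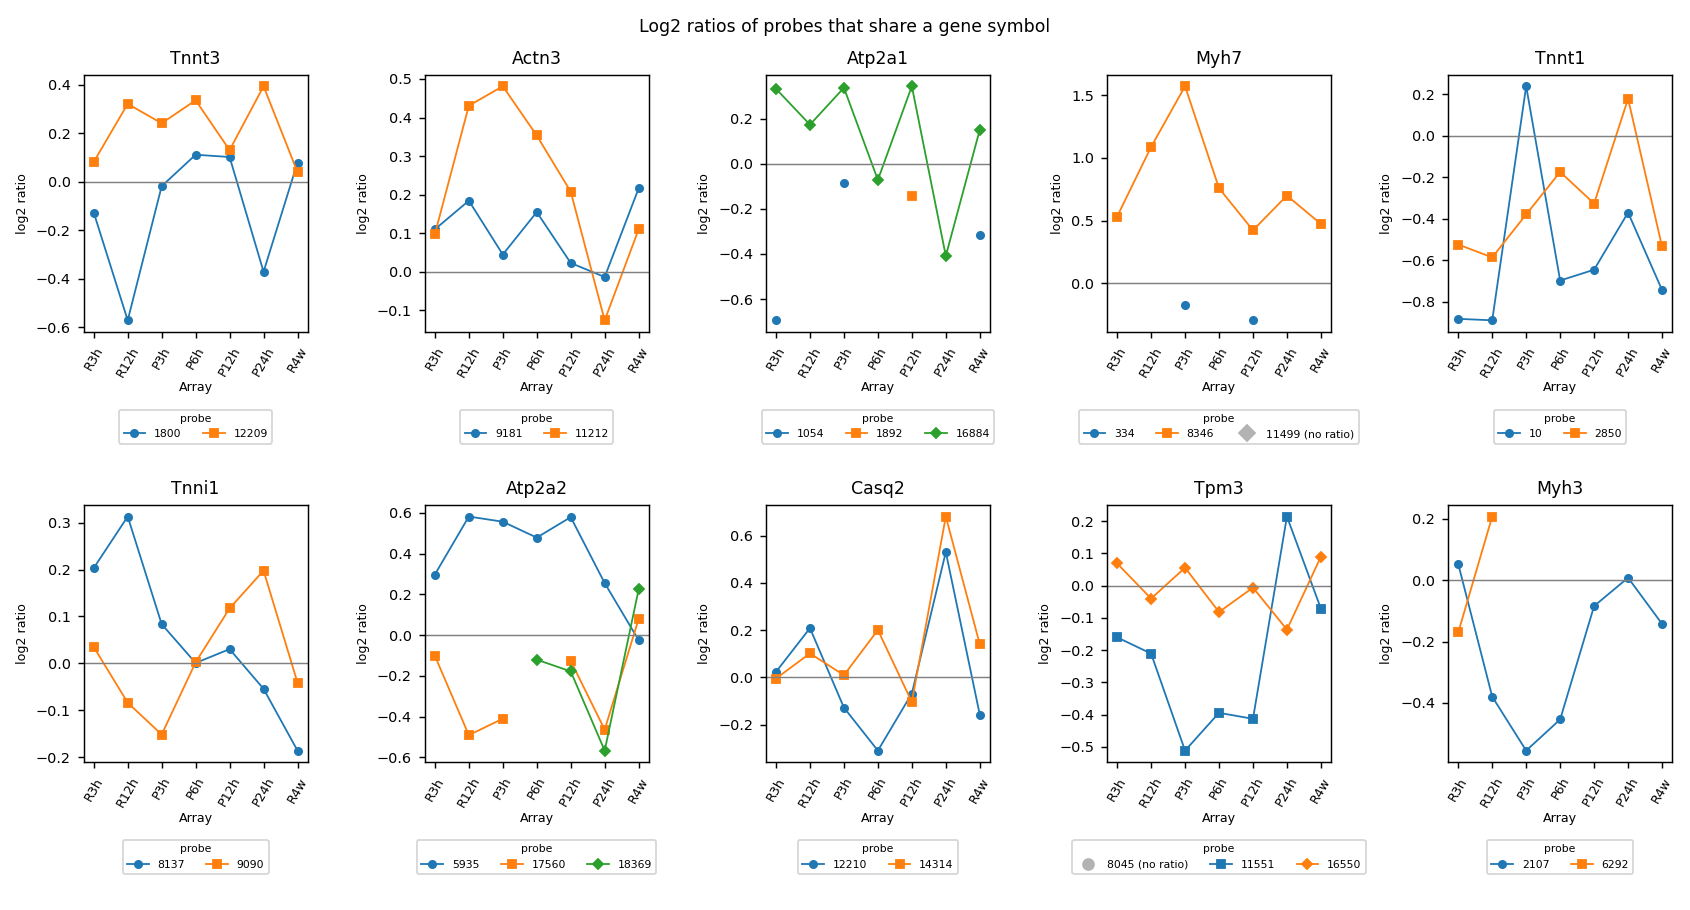
Log2 ratio (vertical axes, each panel on its own scale) on the 7 arrays (horizontal axes) of the probes of the 10 symbols that lie on more than 1 probe; a line joins neighbouring arrays of a probe. The Actn3 probes kept the same sign on all 7 arrays, and the Atp2a2 probe 5935 was opposite to the other Atp2a2 probes wherever they shared an array.

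The second question was how these genes changed between running and rest, which sets running pools against each other, so that the shared control pool cancels. The Mylpf probe had the largest differences among the members, and no member passed a test. Recovery (P3h, P6h, P12h and P24h) minus run end (R3h and R12h) called 0 of the 26 probes in limma. Of the 9023 probes, 0% were called positive and 0% negative. An unadjusted p under 0.05 was found for 2 of the 26 probes and 868 of the 9023, a lower share among the members. The 2 were Tnni2, at -0.70 ± 0.18 (SE, adjusted p 0.305), and Tnnc1, at 0.72 ± 0.22 (adjusted p 0.388). The Mylpf difference was -1.31 ± 0.62 (SE, limma adjusted p 0.554), number 6 of 9023 by size.

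The slope over R12h, P3h, P6h, P12h and P24h, per sampling step, also called 0 members in limma, where 0.0111% of all probes were called positive (1 probe) and 0% negative. An unadjusted p under 0.05 was found for 4 of the 26 members and 1110 of the 9023 probes, which are similar shares. Mylpf had a slope of -0.66 ± 0.11 per step (SE, adjusted p 0.177), number 3 of 9023 by size. Tnnc1 had 0.27 ± 0.06 (adjusted p 0.26), Tnnt1 number 2850 had 0.16 ± 0.06 (0.346) and Actn3 number 11212 had -0.14 ± 0.05 (0.355; limma). The largest drop of Mylpf between neighbouring times was from P6h to P12h, where it dropped by 1.64. Between R12h and P24h 1 of 28 member probes with both ratios gained at least 1 (1.12% of all probes did) and 1 lost at least 1 (2.52% did). These were Tnnc1, by 1.31, and Mylpf, which fell by 2.34. The Tnnt1 probe 10 moved by 1.13 from R12h to P3h and by -0.94 from P3h to P6h.

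**Figure D4:**
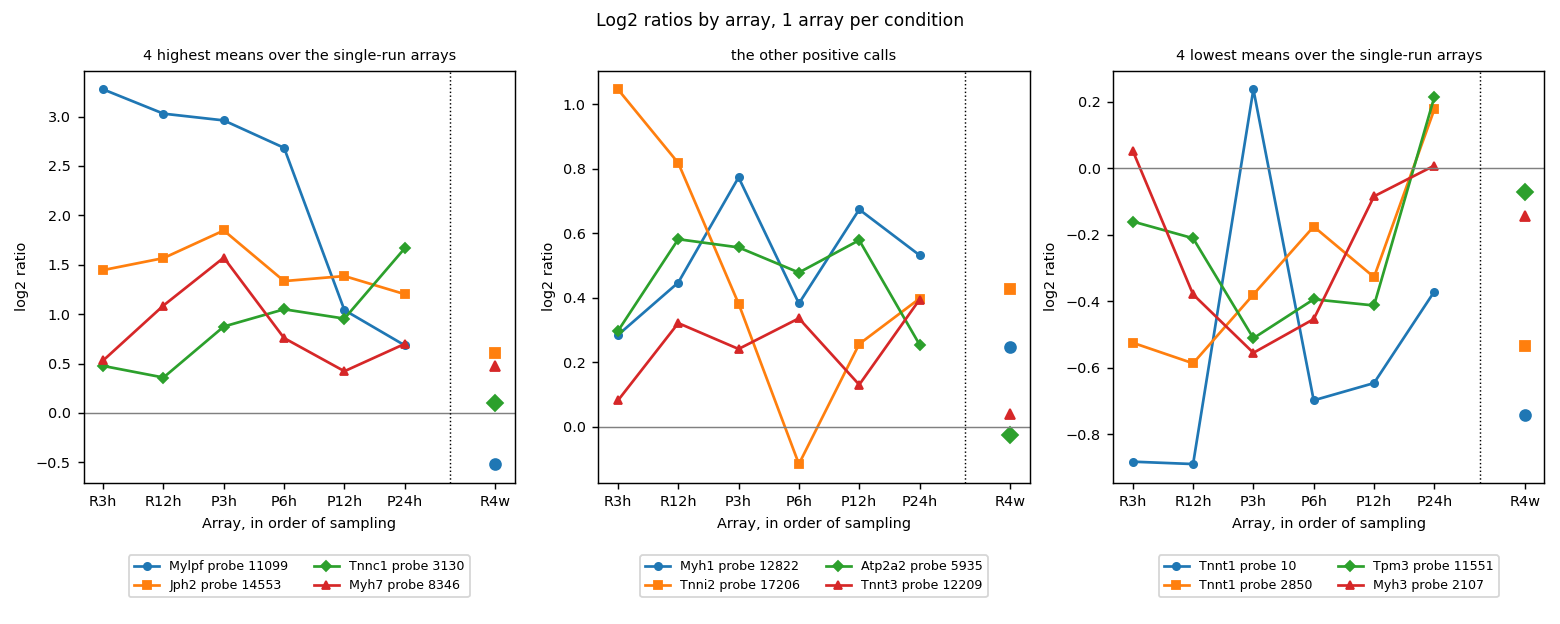
Log2 ratio (vertical axes) on the single-run arrays in order of sampling (points joined by lines) and on R4w (points right of the dotted line) of the 4 probes with the highest means, the other 4 positive calls and the 4 probes with the lowest means. Mylpf falls from 2.68 on P6h to 1.04 on P12h, while Tnnc1 is highest, at 1.67, on P24h.

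The positions of the fast and slow probes 24 h after the run are given as counts, and the difference between the groups was not tested. Of the 11 fast fibre probes with a full record, 4 were above 0 on P24h, against 7 to 10 on the other single-run arrays, and 6 had their lowest single-run ratio there (54.5%, against 25.0% of all 9023 probes). The 6 were Mylpf, Myh4, Tnnc2, both Actn3 probes and Atp2a1 number 16884. Of the 12 slow fibre probes, 6 had their highest ratio on P24h (against 32.4% of all probes), namely Tnnc1, both Casq2 probes, Tnnt1 number 2850, Tpm3 number 11551 and Tnni1 number 9090. Another 3 of the 12 had their lowest ratio there, the same share as over all probes (25.0%), and the Atp2a2 probes 17560 and 18369, without a full record, stood at -0.46 and -0.57. The medians on P24h were -0.13 for the fast and 0.21 for the slow probes and 0.04 over all. P24h had the widest spread of the 7 arrays (SD 0.51, against 0.35 to 0.48).

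The third question was how the trained pool compared with the pools after a single run. For the trained pool, the time from the last run to sampling is not given in the labels. On R4w, the array with the smallest spread (SD 0.35 over all probes), 18 of 26 member ratios were smaller in size than their median size over the single-run arrays. That share, 69.2%, was near the 63.1% of all probes. Subtracting the single-run mean from R4w called 0 members in limma, where 0% of all probes were called positive and 0.0111% negative (1 probe). At an unadjusted p under 0.05 there were 3 members (523 of all probes). These were Mylpf, at -2.80 ± 0.91 (SE, adjusted p 0.83) and number 7 of 9023 by size, Jph2, at -0.86 ± 0.23 (0.746), and Atp2a2 number 5935, at -0.48 ± 0.19 (0.83; limma). The trained arm is 1 array, which the test takes to vary like the others. Of the 7 probes positive on all single-run arrays, 5 were positive and 2, Mylpf and Atp2a2 number 5935, were negative on R4w. The negative share was 28.6%, near the 27.5% (427 of 1555) over all probes.

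On single arrays, large ratios among the members were all positive. A ratio of at least 1 was found for 3 of 32 usable member probes on R3h (Mylpf, Jph2 and Tnni2), against 0.808% of all usable probes. On R12h (3 of 32) and P3h (3 of 33) the probes were Mylpf, Jph2 and Myh7, against 1.13% and 1.84%. On P6h they were Mylpf, Jph2 and Tnnc1 (3 of 27, against 1.91%) and on P12h Mylpf and Jph2 (2 of 33, against 0.885%). P24h had Jph2 and Tnnc1 (2 of 29, against 1.34%), and R4w had Myom1 (1 of 34, against 0.257%). No member probe was at or below -1 on any of the 7 arrays. The shares of all probes there were 2.44% on R3h, 1.89% on R12h, then 0.542%, 1.78%, 0.966% and 3.38% in recovery (P3h to P24h) and 0.847% on R4w. No test applies to 1 array.

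Other genes of the sarcomere and of calcium handling, listed by name, had no call past 0.34 in size in the single-run comparison. Of 38 further sarcomere symbols, 17 were tested on 18 probes, and 0 positive and 2 negative means passed, of Actn2 (the actinin of all striated fibres) at -0.34 and Ankrd1 (a stretch-responsive titin partner) at -0.34. Of 34 further calcium handling symbols, 21 were tested on 29 probes, with 5 positive and 1 negative, beside 16.2% and 14.2% of all probes. They included Ryr1 (the calcium release channel of skeletal muscle) at 0.34, Slc8a1 (a sodium-calcium exchanger) at 0.25, S100a1 (a calcium-binding protein of striated muscle) at 0.24 and Calm2 (calmodulin) at -0.31. Of 8 cardiac symbols, 4 were tested on 5 probes, with 1 positive, Nppa (atrial natriuretic peptide) at 0.28, and 1 negative, Myh6 (the cardiac alpha heavy chain) at -0.33. Recovery minus run end and the recovery slope called 0 of these probes. An unadjusted p under 0.05 was found for 4 and 5 of them, beside 868 and 1110 of all 9023 probes (limma). In the trained comparison, which has 1 trained array, their estimates lay between -0.57 and 0.53.

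Probes named for other cell types were called as well. Positive and negative calls numbered 1 and 2 of 6 macrophage and leukocyte probes, 1 and 0 of 4 endothelial, 0 and 0 of 2 fibroblast, 2 and 0 of 4 adipocyte, 1 and 0 of 4 erythroid and 0 and 0 of 3 nerve probes (limma). Over all 9023 probes, 16.2% were called positive and 14.2% negative, and no list was tested against these shares. The largest were C1qa at -2.32, Lyz2 at -0.62, Eng at 0.49 and Adipoq at 0.44. The positive call among the macrophage and leukocyte probes was Ptprc, at 0.29. The 2 tested fibroblast probes had means of 0.14 and 0.15. A probe of Lum (lumican, a matrix proteoglycan), named after its values were seen, was not tested because P24h gave no ratio. It had -2.82 and -2.72 right after running, 0.28, -2.86 and -2.10 on P3h, P6h and P12h, and -2.63 on R4w. Probes of Adgre1 (macrophage list) and Pmp22 (nerve list), picked for size and also without a full record, stood at -1.27 and -1.18 on R3h. The median ratio of the adipocyte probes was 0.17 to 0.48 on the single-run arrays and -0.03 on R4w, and that of the macrophage probes -0.19 to -0.03 and 0.04. For endothelial probes these medians were -0.09 to 0.35 and -0.15, for fibroblast probes -0.31 to 0.45 and -0.17, for erythroid probes -0.29 to 0.26 and 0.19 and for nerve probes -0.19 to -0.03 and -0.14. Their part in the ratios of the muscle genes was not tested.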

How the data were processed

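The authors deposited a value table with a log2 ratio for every probe on each array. How the scans were corrected, normalized and centred is not stated in any label. Base 2 was inferred because the smallest size above 0, 3.20e-16, is what base-2 logs give for the double next to 1. Medians of the usable ratios lay between -0.02 and 0.01. Zeros, 16.1% of the values on P3h and up to 41.7% on P6h, were treated as missing because their meaning is not given. No intensities were used, so precision is limited by how many arrays there are.

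Names came from the platform's probe-to-gene annotation (13731 with 1 symbol, 52 with several, 2490 with none). All 44 member probes kept their symbol in current RefSeq names. Probes with a ratio on all 7 arrays (9023) were fitted one by one with limma (version 3.58.1, R 4.3.3; lmFit and eBayes, two-sided, Benjamini-Hochberg over all probes), without averaging probes of one name. Conditions have 1 array each, so times stand in for replicates. On simulated data with 9023 probes, the tests recovered 97% of means of 1 and 72% of recovery differences of 1. They also recovered 20% of slopes of 0.25, 73% of slopes of 0.5 and 53% of trained differences of 1. False calls numbered 15, 6, 1 and 5 in the same order of tests. The simulated noise was independent between arrays, so an offset from the shared control pool or the dyes was not covered. Per-array values are printed for called probes, for the 4 highest and 4 lowest means and for symbols on several probes; of other lists, at most 4 called probes each. Promoter windows come from RefSeq (GRCm38.p6). The members and lists were chosen with earlier results of these data known. Averaging by name, zeros as values, looser filters, scaling, centring, a robust prior, other time scales and left-out arrays were tried.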

Additional observations from a re-analysis of the deposited data

Results flagged for a closer look

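The Mylpf probe (number 11099) was positive on all 6 single-run arrays, from 0.68 to 3.27, and at -0.52 on the trained array R4w. The difference was -2.80 ± 0.91 (SE, limma adjusted p 0.83), so the opposite sign did not pass the test.

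The Atp2a2 probe number 5935 was likewise positive on the 6 single-run arrays, from 0.26 to 0.58, and at -0.02 on R4w, a value next to 0. Over all probes positive on the single-run arrays, 27.5% were negative on R4w. Its difference was -0.48 ± 0.19 (SE, limma adjusted p 0.83).

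The Myom1 probe (number 10977) entered none of the main tests because it had a usable ratio on 1 array only. There it stood at 4.76 (R4w), number 2 from the top of 13228 probes. Only the setting with zeros kept as values fitted it, with its zeros taken as ratios. With no ratio on the other 6 arrays it has nothing to be compared with.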

How the results depend on the processing

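In the single-run comparison 8 positive and 2 negative member calls became 6 to 9 and 0 to 3 with an array left out, and 7 to 9 and 1 to 3 in the other settings. The negative count was 1 with probes averaged by symbol, with zeros kept as values and with local medians subtracted. Mylpf, Jph2, Tnnc1, Myh7, Myh1 and Atp2a2 number 5935 kept their direction and their call in all 15 settings tried, the Mylpf mean lying between 2.08 and 2.99. Averaging by symbol could not alter these calls, because each of these symbols had 1 probe with a full record. Atp2a2 numbers 17560 and 18369 and Myh7 number 334, opposite in sign on the single-run arrays, did not enter the averages. Tnni2 lost its call with zeros kept (adjusted p 0.0686) and Tnnt1 number 2850 with zeros kept (0.0796) or local medians subtracted (0.0884). With P6h and P24h both left out, an alternative chosen after seeing the data, the adjusted p was 0.0767 for Tnnt1 number 10 and 0.0639 for Tnnt3 number 12209, while Atp2a1 number 16884 (0.0173), Actn3 number 11212 (0.0374) and Tpm3 number 11551 (0.0274) passed. With P12h and P24h both left out, chosen in the same way, Tnnt1 number 10 (0.0674) and Tnni2 (0.0681) did not pass, while Actn3 number 11212 (0.0277) and Tpm3 number 11551 (0.0316) did. Over all probes, 976 to 1694 positive and 790 to 1610 negative calls were made with an array left out, and 1918 negative ones with a ratio required on 5 arrays.

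The other 3 tests called 0 members in every setting, except that the trained comparison with zeros kept called 1 positive member. That member was a probe without a full record, so zeros entered its fit as ratios. Over all probes, recovery minus run end called 3 positive with zeros kept and 1 negative with 5 arrays required. The slope's 1 positive call became 0 under zeros kept, 5 arrays required, scaling, centring, local medians, hours, log2 hours and each left-out array, and hours gave 1 negative. The trained comparison called 17 positive and 3 negative with zeros kept, 1 positive with 5 arrays required and 0 negative against P12h and P24h only. At a log2 ratio of 0.5 in place of 1, the 17 positive and 0 negative single-array values of members became 33 and 16. No paired analysis was possible because each condition has 1 array and the labels give no replicate numbers.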
